A study of Drosophila melanogaster with 2 samples.

Results

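The 8 genes described here belong to the JAK/STAT pathway of Drosophila: the ligands upd1, upd2 and upd3, the cascade genes dome, hop and Stat92E, and the negative regulators Socs36E and Ptp61F. They are 8 of 13945 protein-coding genes on the 6 main chromosome arms. The list was chosen by measured values, with the number of tx-eGFP peaks around Ptp61F already known. Peak numbers, ranks and signals at these genes are therefore given as a description, with no test.

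ChIP-seq, the sequencing of DNA immunoprecipitated with a protein, was done for tx (taxi), a transcription factor of the basic helix-loop-helix class. There was 1 group: flies of the strain tx-GFP, a transgenic line that expresses tx with GFP fused to its C-terminus, immunoprecipitated with an anti-GFP antibody. Chromatin came from mixed-sex whole embryos aged 0 to 24 h and was sonicated to 200 to 800 bp, in 2 biological replicates. No control-group samples were analysed here, and peaks of both replicates were called against 1 shared control. Whole embryos mix all cell types of a full day of development, so a peak cannot be assigned to a tissue, and a weak peak in many cells cannot be told apart from a strong peak in few.

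In the JAK/STAT pathway, secreted Unpaired ligands bind the receptor Domeless, the Janus kinase Hopscotch phosphorylates the receptor and the transcription factor Stat92E, and Stat92E enters the nucleus and binds DNA. The pathway acts in segmentation, in the tracheae and hindgut of the embryo, in blood cells and in stem cell niches. Socs36E is a suppressor of cytokine signalling and itself a well-known target gene of Stat92E, while Ptp61F is a tyrosine phosphatase that removes the activating phosphates.

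Each peak was taken by its summit, the base of highest signal. The optimal IDR set, which is the authors' set thresholded for reproducibility, held 3102 peaks on the dm6 genome. Not each of them was found in both replicates: 2822 (91.0%) had a summit within 100 bp in both. The pooled list and each replicate list held 30000 peaks each at a relaxed threshold, background included. The authors' signal had a median of 20.0 in the pooled list, 15.3 in replicate 1 and 8.54 in replicate 2, so ranks rather than signals were compared between lists. A gene's window was its annotated body with 5 kb on either side, and TSS stands for an annotated transcription start site.

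The sequences below are those of summits on which the description turns, 50 bp either side and trimmed where an untranslated region began. They are read from the + strand of the Release 6 genome of RefSeq, whose arms match dm6. Capitals mark matches to TTCNNNGAA (the STAT-type word) or to its variant with 4 bases between TTC and GAA, to CANNTG (the E-box, the word class bound by basic helix-loop-helix factors) or to TATCGATA, on either strand. The Socs36E pair are its strongest peak and the peak nearest to its start, the Ptp61F lines are the peak at its own start, its 2 strongest peaks and peak 5, which holds a STAT-type word, and the last line is the summit between upd3 and upd1.
Socs36E peak 3 (chr2L:18145445-18145545): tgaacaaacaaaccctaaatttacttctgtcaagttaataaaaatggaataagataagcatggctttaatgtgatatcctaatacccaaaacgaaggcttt
Socs36E peak 4 (chr2L:18151308-18151408): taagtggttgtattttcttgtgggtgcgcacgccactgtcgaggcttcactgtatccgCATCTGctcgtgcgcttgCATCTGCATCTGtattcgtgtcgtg
Ptp61F peak 2 (chr3L:1350600-1350683): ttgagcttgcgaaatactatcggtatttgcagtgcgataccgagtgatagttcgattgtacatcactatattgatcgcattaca
Ptp61F peak 4 (chr3L:1368256-1368356): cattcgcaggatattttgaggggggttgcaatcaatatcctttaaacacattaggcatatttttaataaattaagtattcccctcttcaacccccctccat
Ptp61F peak 5 (chr3L:1376179-1376279): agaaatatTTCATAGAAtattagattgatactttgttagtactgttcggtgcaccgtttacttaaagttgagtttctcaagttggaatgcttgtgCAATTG
Ptp61F peak 7 (chr3L:1443058-1443158): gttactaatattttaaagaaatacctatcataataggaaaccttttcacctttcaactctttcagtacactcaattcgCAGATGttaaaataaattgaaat
Summit between upd3 and upd1 (chrX:18294217-18294317): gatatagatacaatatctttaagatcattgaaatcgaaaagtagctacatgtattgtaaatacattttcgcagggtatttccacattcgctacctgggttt

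An optimal IDR summit lay in the windows of 2 of the 8 members, Socs36E with 4 and Ptp61F with 9. Over all protein-coding genes the share with at least 1 such summit was 41.1%, so a summit in the window was common genome-wide. None of the 3 ligands and none of the 3 cascade genes held one within 5 kb. With 10 kb either side, 6 of 8 members held one, since the nearest summit lay 5393 bp from Stat92E, 7475 bp from dome, 9371 bp from hop and 9671 bp from upd3. The share over all genes at 10 kb is not given here, so 6 of 8 cannot be set against 41.1%. Within 1000 bp of an annotated start, 1 of 8 members had an optimal IDR summit, Ptp61F, where the share over all genes was 18.9%. The 13 summits had signals from 58.9 to 133 with a median of 71.9, against a median of 91.2 over the whole optimal IDR set, and 4 of the 13 were among its strongest 1551.

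The 3 ligand genes lie near each other on chromosome X, and each encodes a secreted cytokine of the Unpaired family. At upd1 (FBgn0004956, X, 18305354 to 18309291, - strand), the relaxed lists held 2 summits in the pooled data, 1 in replicate 1 and 2 in replicate 2. Its strongest pooled peak ranked 14453, 3477 bp upstream of a start, and the strongest peaks of the replicates ranked 11572 and 7822 and lay 10422 bp apart. These were weak peaks on opposite sides of the gene.

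At upd2 (FBgn0030904, X, 18240654 to 18243284, - strand), the lists held 4, 3 and 3 summits in the same order. The strongest ranked 10598 in the pooled list, 8123 in replicate 1 and 15943 in replicate 2, and the replicates' best summits were 2561 bp apart. At upd3 (FBgn0053542, X, 18277233 to 18284596, + strand), the lists held 5, 2 and 4 summits, and the best ranks were 8957, 9152 and 11038. The replicates put their best summit 7183 bp apart there. No ligand thus had a strongest peak at a shared place in both replicates.

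The stretch from the 3′ end of upd2 to the 5′ end of upd1 spans 68.6 kb and held 1 optimal IDR summit, where its share of the genome by length gives 1.59. That summit, at position 18294267 of chromosome X, was outside every member window and overlapped no annotated gene. It lay 9671 bp past the 3′ end of upd3 and 11087 bp from the 3′ end of upd1, and the nearest protein-coding start was that of upd1 at 13992 bp. It ranked 1795 in the pooled data (signal 83.6), 1850 in replicate 1 and 6123 in replicate 2. The stretch was examined after its value was seen. Its printed sequence holds none of the words searched.

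Of the cascade genes, dome (FBgn0043903, X, 19676061 to 19683518, - strand) encodes the receptor. It had 6 summits in the pooled list, 7 in replicate 1 and 6 in replicate 2. The strongest pooled one ranked 7751, 182 bp upstream of the dome start and 108 bp from that of the divergent neighbour Ubqn, and the best ranks in the replicates were 7373 and 12774. The nearest optimal IDR summit lay 7475 bp beyond the gene's 3′ end, ranked 95 with a signal of 351, and was nearest to Zw, the gene of glucose-6-phosphate dehydrogenase.

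The Janus kinase gene hop (FBgn0004864, X, 11360930 to 11368098, - strand) had a pooled summit 4 bp from its start, at rank 8110 with a signal of 29.3. Replicate 1 held it at rank 7360, 8 bp from the start. Replicate 2 held 2 summits in the whole window, the better at rank 26505 and 68 bp from a start of the neighbour dlg1. The promoter peak of hop was therefore seen in replicate 1 and in the pooled data but not among the 30000 peaks of replicate 2. The nearest optimal IDR summit to hop lay 9371 bp from the gene, at rank 348, and was nearest to CG1737, 951 bp from its start.

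Stat92E (FBgn0016917, 3R, 20535323 to 20552311, - strand), the transcription factor of the pathway, had many weak summits, 19 in the pooled list, 15 in replicate 1 and 11 in replicate 2. Per kb of window the pooled list gave 0.704 summits, against a median of 0.314 over all genes. The strongest pooled summit lay in a 5′ untranslated exon, 357 bp downstream of an internal start, at rank 3544 with a signal of 53.1. In replicate 1 the best summit was at nearly the same place and ranked 2012, while in replicate 2 the best summit ranked 2888 and lay in an intron, 921 bp from the start. The replicates' best summits were thus 556 bp apart, each among the strongest 3102 of its own list.

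Taking the strongest 3102 peaks of 1 replicate at a time therefore put Stat92E beside both negative regulators. In replicate 1, 3 of 8 members held such a peak, where the share over all genes was 40.7%. In replicate 2 the count was also 3 of 8, against 40.3%. The nearest optimal IDR summit to Stat92E was 5393 bp from the gene, at rank 2302, and lay 37 bp from the start of DPCoAC, a mitochondrial carrier gene next to it.

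**Figure D1:**
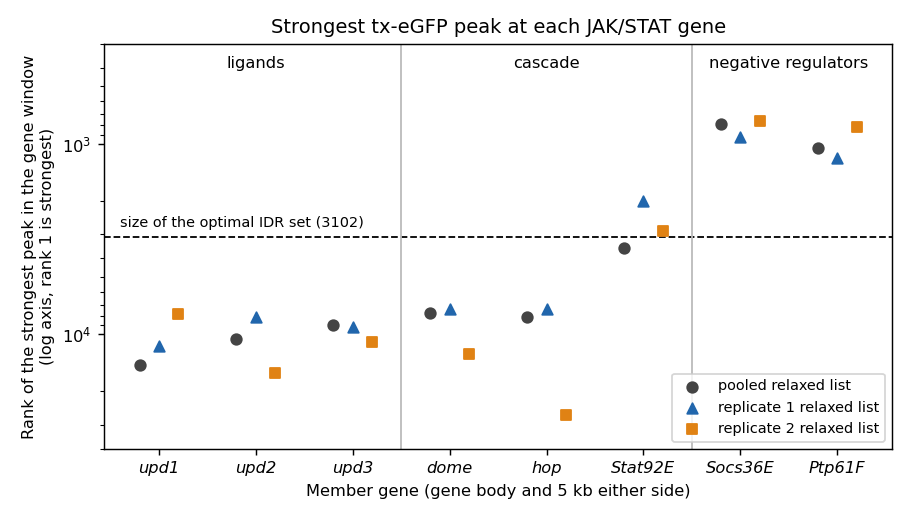
Rank of the strongest peak in each member's window (log axis, rank 1 at the top) in the pooled list (circles), replicate 1 (triangles) and replicate 2 (squares), with the size of the optimal IDR set as a dashed line. Socs36E and Ptp61F stand above the line in all 3 lists, Stat92E crosses it between lists, and the 5 other genes stay below it.

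The order of the best pooled ranks was Socs36E at 793, Ptp61F at 1061, Stat92E at 3544, dome at 7751, hop at 8110, upd3 at 8957, upd2 at 10598 and upd1 at 14453. Among the last 5, the order differed between the replicates. In replicate 1 hop was the best of the 5 and upd1 the last, while in replicate 2 upd1 was the best and hop the last. Socs36E and Ptp61F kept the 2 best places in each list. The median over the 8 members was 7930.5, and the median over all genes, with genes without a summit placed last, was 4429. Since the list was chosen with these peaks known, that separation of classes is fixed by the choice and carries no further weight.

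At a looser level, a pooled relaxed summit lay within 1000 bp of a start for 6 of 8 members, where the share over all genes was 62.9%. The 6 were upd3, the 3 cascade genes and both negative regulators. Weak promoter peaks were thus present at all 3 cascade genes, and such peaks were common genome-wide.

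Socs36E (FBgn0041184, 2L, 18138675 to 18152417, - strand) is 13.7 kb long with 1 annotated start. Its 4 optimal IDR summits were all intronic and all downstream of that start. The strongest, peak 3, had its summit at 18145495, 6922 bp from the start, and ranked 793 in the pooled list with a signal of 133. It ranked 924 in replicate 1 and 762 in replicate 2, where the summits lay 28 bp apart. With 113 bp, its interval was narrow: 249 of the 3102 peaks (8.03%) were narrower than 170 bp, and 2282 had the common width of 410 bp.

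Peak 4 of Socs36E lay closest to the promoter, 1059 bp into the gene at 18151358, with rank 1338 and a signal of 100. Its ranks in the replicates were 1192 and 1577. Both replicates therefore held the 2 strongest Socs36E peaks among their own strongest 3102.

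Peaks 1 and 2 formed a pair toward the 3′ end of the gene, with summits at 18141470 and 18141692 that lay 222 bp apart and intervals that overlapped by 188 bp. Their pooled ranks were 2573 and 2579, with signals of 66.3 and 66.2. Replicate 1 resolved both, at ranks 3148 and 5374, whereas replicate 2 held peak 2 at rank 1610 and no summit within 100 bp of peak 1. The pair counts as 2 summits here but may be read as 1 broad region. The nearest start to both was that of kel, a gene of the ring canals of the female germline, 3387 and 3609 bp away.

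The promoter of Socs36E itself fell just short of the optimal set. A pooled summit 92 bp upstream of the start, at 18152509, ranked 3469 with a signal of 53.8, and replicate 1 held it at rank 2956. The nearest replicate 2 summit lay in the 5′ untranslated region at rank 9806. Next to the cutoff of the optimal IDR set, whose lowest signal was 58.5, the members just inside were Ptp61F peak 5 at 58.9, peak 8 at 59.4 and peak 6 at 59.5. Just outside were this Socs36E summit at 53.8 and the Stat92E summit at 53.1.

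**Figure D2:**
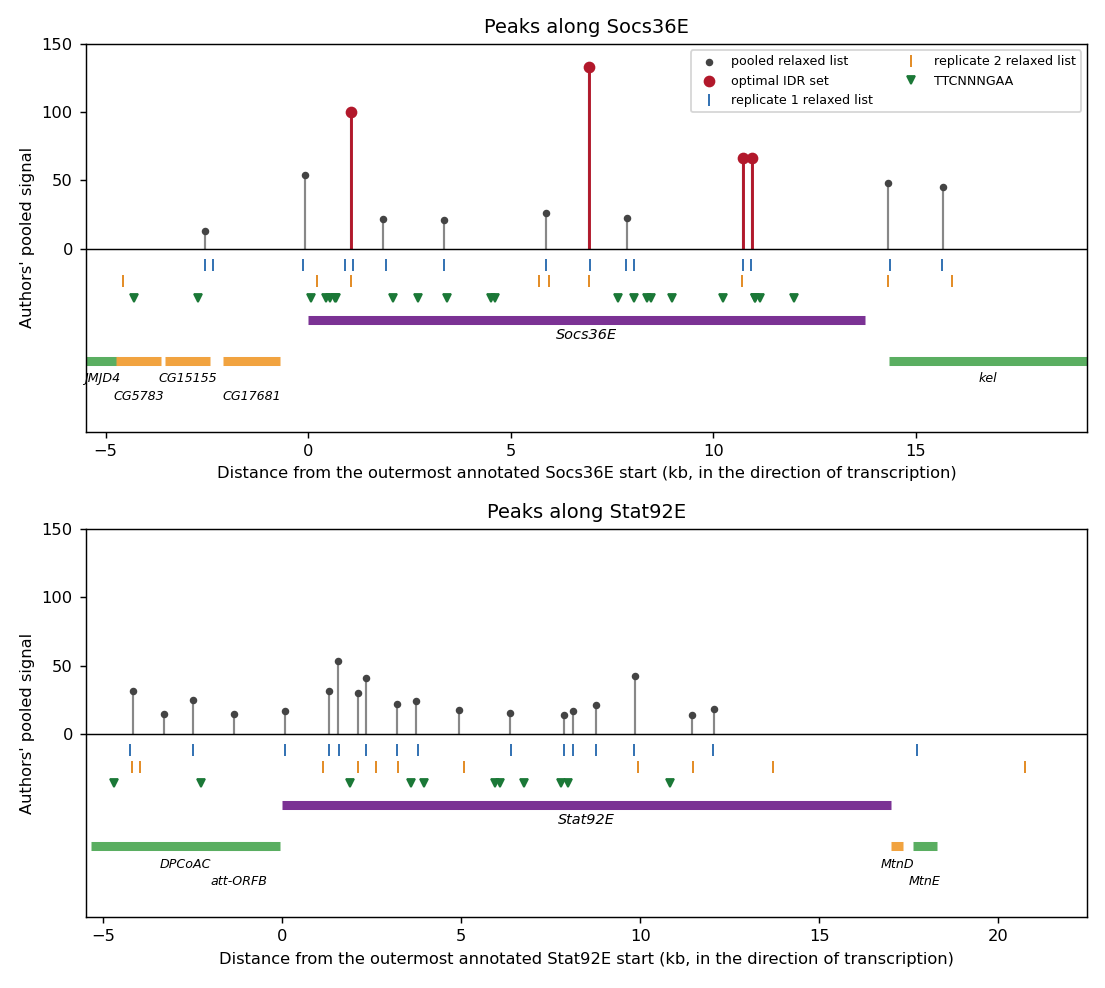
Pooled signal (vertical axis) of every peak in the Socs36E and Stat92E windows against distance from the outermost gene start in kb, with optimal IDR peaks in red, replicate summits as ticks, TTCNNNGAA words as triangles, the gene in purple and other protein-coding genes in green (same strand) or orange (opposite strand). Socs36E has 4 red peaks with signals from 66.2 to 133, and Stat92E has 19 pooled peaks of at most 53.1 and none in red.

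Ptp61F (FBgn0267487, 3L, 1342493 to 1475257, - strand) is annotated over 133 kb, with 5 transcripts from 4 starts. The 9 summits in its window depend on which transcript is taken. The 133 kb transcript contains 7 of them, the 82.5 kb transcript contains 5, and the 3 short transcripts, of 6.82 and 8.11 kb, contain none in their spans and each have 3 once 5 kb is added on either side. Starts of 9 other protein-coding genes lie inside the longest transcript and 6 inside the next, so the window is shared with other genes.

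Of the 9 summits, 1 had Ptp61F as the nearest protein-coding start. This was peak 2, at 1350633, 34 bp upstream of the start that 2 short transcripts share and 483 bp from the start of CG9166, an uncharacterised gene on the opposite strand. It ranked 2057 with a signal of 76.4, and 2416 and 2179 in the replicates. The replicate 2 summit lay 100 bp away, at the limit used for a match.

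The other 8 summits were nearest to other genes, and 5 of the 9 to ru, rho or stet, 3 genes of rhomboid-family intramembrane proteases. In Drosophila these proteases release ligands of the EGF receptor. Peak 4, at 1368306 and 2322 bp upstream of ru, ranked 1210 with a signal of 106, and 1194 and 1231 in the replicates. Peaks 5 and 6, at 1376229 and 1379085, lay in an intron of ru and ranked 3067 and 3026.

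Peak 8, at 1463879, was 68 bp from the start of rho and ranked 3033, with rank 2556 in replicate 1 but 16618 in replicate 2. Peak 9, at 1479497, lay in an intron of stet, 556 bp from a start of that gene and 4240 bp upstream of Ptp61F, and ranked 2268. Its replicate ranks were 2595 and 2059. Of the 3 rhomboid genes, ru was named after its values were seen.

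The strongest summit of the window, peak 7 at 1443108, lay in an intron of the 133 kb Ptp61F transcript alone, 5236 bp upstream of SA2, a cohesin subunit gene of the stromalin family, and 18129 bp from the nearest Ptp61F start. It ranked 1061 with a signal of 114, and 1262 and 814 in the replicates. Its interval, 166 bp wide, was also narrow. No other optimal IDR summit lay for 64023 bp between it and peak 6.

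At the 3′ end, peak 1 at 1342277 was past the end of Ptp61F and 94 bp from the start of its neighbour indra, with rank 1700 and a signal of 86.6. Its replicate ranks were 1540 and 2539. Peak 3, at 1352351 in the 3′ untranslated region of CG9166, ranked 2860, with 2085 in replicate 1 and 18556 in replicate 2. The summits of peaks 1, 3, 5, 6, 8 and 9 lay inside other protein-coding genes, and peak 2 was within 1000 bp of the CG9166 start as well as of its own. Peaks 4 and 7 were neither inside another protein-coding gene nor within 1000 bp of the start of one.

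**Figure D3:**
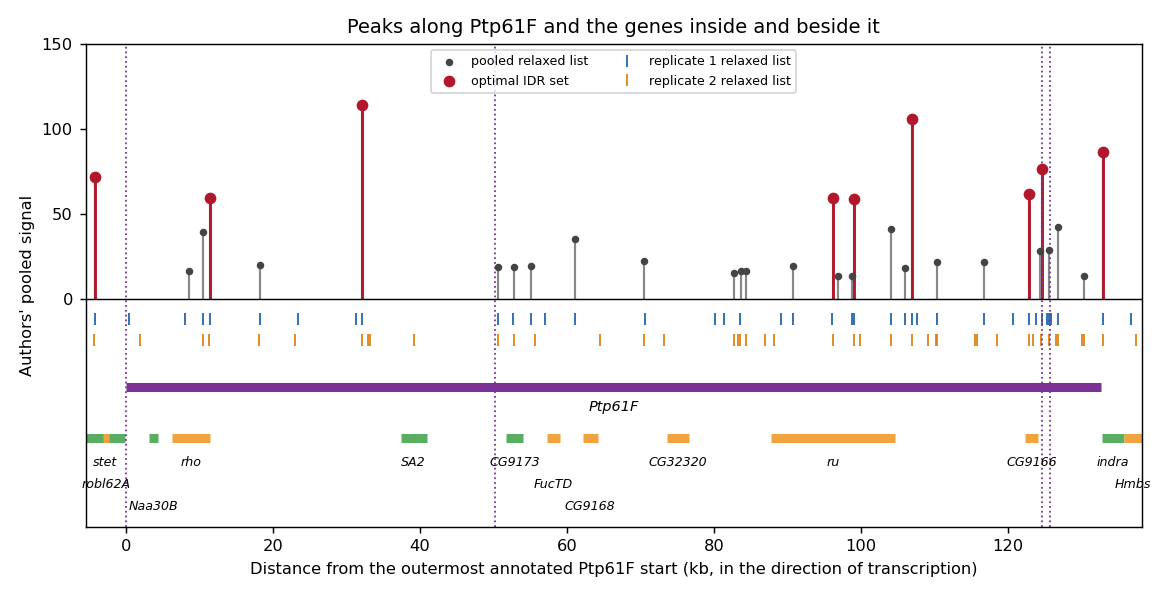
Pooled signal of every peak in the Ptp61F window against distance from the outermost Ptp61F start in kb, with optimal IDR peaks in red, replicate summits as ticks, Ptp61F starts as dotted lines, and other protein-coding genes in green (same strand) or orange (opposite strand). The 9 red peaks form a group of 6 toward the 3′ end, where ru, CG9166 and indra lie, and a group of 3 near SA2, rho and stet.

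Each of the 9 Ptp61F summits had a summit within 100 bp in both replicates, and 5 were among the strongest 3102 of both. For the 4 Socs36E summits the numbers were 3 and 2. Over the whole optimal IDR set, 2822 peaks (91.0%) had a match in both replicates. The whole-set share among the strongest 3102 of both is not given here, so the stricter counts stand without a comparison. Both replicates share the control, so the matches are not independent of it.

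**Figure D4:**
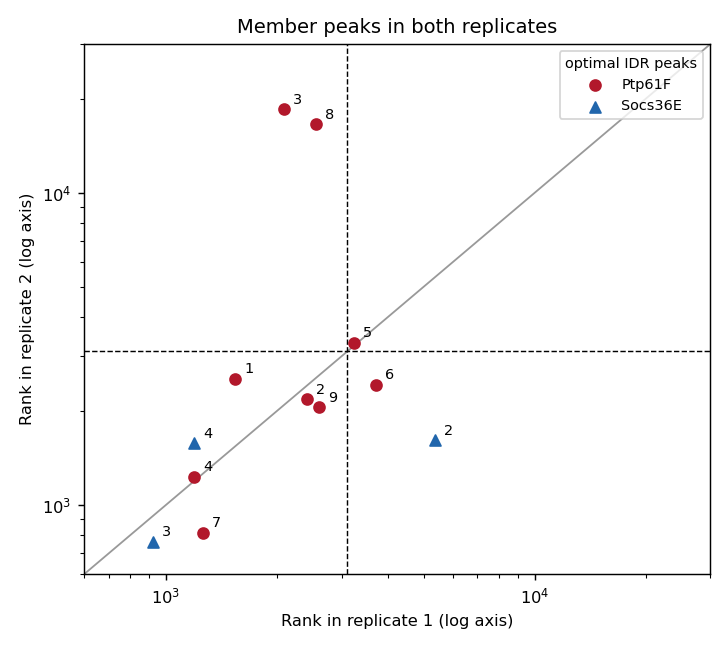
Rank in replicate 1 against rank in replicate 2 (log axes) of the 12 member peaks found in both, numbered along each gene, with the diagonal as a grey line and rank 3102 as dashed lines. Ptp61F peaks 3 and 8 rank 18556 and 16618 in replicate 2, and Socs36E peak 2 ranks 5374 in replicate 1.

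Of the 13 summits, 11 were intronic in the member and 4 lay within 1000 bp of any protein-coding start. Over the whole optimal IDR set the latter count was 2014 of 3102 (64.9%). The share of intronic summits over the whole set is not given here, so nothing is read from the 11. When each optimal IDR summit was given to the protein-coding gene of the nearest start, 3 of 8 members received at least 1, upd1, Socs36E and Ptp61F. The share over all genes was 16.9%. By that rule Ptp61F received 1 summit of its window and Socs36E received 2, peaks 3 and 4.

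Window length differs by gene, and a long window holds more summits. The share of the genome by length gives 3.31 summits for the 143 kb window of Ptp61F, where 9 were found, and 0.55 for the 23.7 kb window of Socs36E, where 4 were found. For the other 6 members it gives from 0.293 at upd2 to 0.625 at Stat92E, where none was found. Among 70 genes with a window within 25% of that of Ptp61F, the median was 1 summit and 1 gene had at least 9. Among 1332 genes of the length of Socs36E, the median was also 1 and 42 (3.15%) had at least 4. Of genes as long as Stat92E 54.5% had at least 1 summit, and of genes as long as hop 47.5%.

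**Figure D5:**
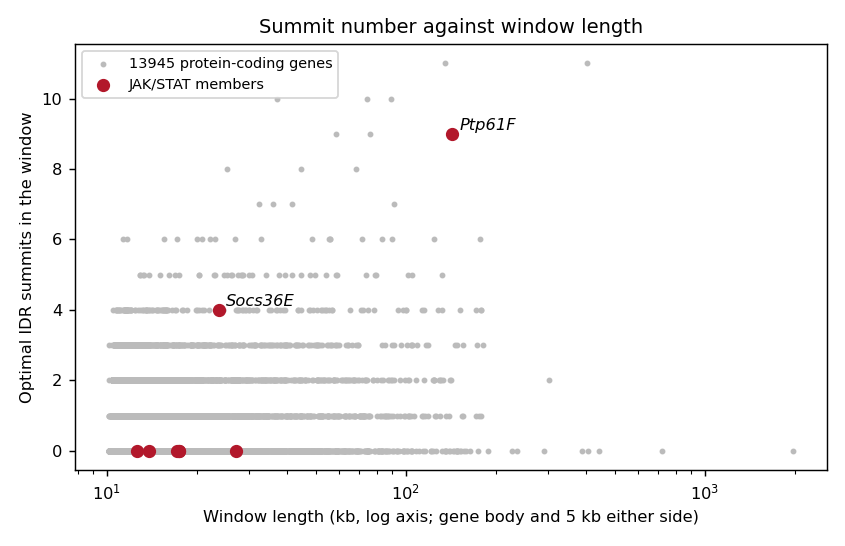
Optimal IDR summits per window against window length in kb (log axis) for 13945 protein-coding genes (grey) and the 8 members (red). Ptp61F with 9 and Socs36E with 4 lie above most genes of their length, and the 6 other members lie at 0.

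The genes nearest to Ptp61F in summit number, best signal and window length together, each scaled over the 5728 genes with a summit, were sbb, Hr4, shn, RapGAP1 and CG1677. They held 10, 9, 8, 7 and 11 summits, in windows of 89.1, 76.0, 68.3, 91.2 and 135 kb. Over all protein-coding genes, 8 had at least 9 summits in the window, Ptp61F among them.

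Of 18 other pathway components, listed from textbook knowledge, 11 (61.1%) had an optimal IDR summit in the window and 5 (27.8%) one within 1000 bp of a start. The shares over all genes were 41.1% and 18.9%, and the differences were not tested. The 5 were apt, a nuclear repressor of the pathway in border cells, mask, a large ankyrin-repeat protein that promotes signalling, Cdk4, a cell cycle kinase reported to act with it, Sumo, the small ubiquitin-like modifier, and the gene of heterochromatin protein HP1a. The apt summit ranked 1131, 117 bp from its start, and 1326 and 1051 in the replicates. The Cdk4 summit ranked 1208, 595 bp from its start, and 1399 and 1068 in the replicates.

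The remaining 3 were less even. The mask summit ranked 2167, 37 bp from its start, and the Sumo summit 2095, 711 bp from its start, and neither had a replicate 2 summit within 100 bp. The HP1a summit ranked 2461, 175 bp from its start, with Ssb-c31a nearer still, and 2896 and 3714 in the replicates.

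Of 12 known target genes, 4 (33.3%) had a summit in the window, chinmo, zfh1, crb and cv-c, and 1 (8.33%) had one within 1000 bp of a start. This was crb, an apical polarity gene, whose summit ranked 1786, 965 bp from its start, and 1707 and 1866 in the replicates. Over all genes the shares were 41.1% and 18.9%, and with 12 genes nothing is read from the difference.

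Sequence was not used to choose the genes. The STAT-type word TTCNNNGAA lay within 50 bp of 2 of the 13 summits, Ptp61F peaks 1 and 5, and within 50 bp of 97 of 3102 optimal IDR summits (3.13%). Within 100 bp it also lay near Socs36E peak 1, 80 bp away, and Ptp61F peak 3, 92 bp away. That made 4 of 13, against 5.61% of all optimal IDR summits. The 4-base-spacer variant was at none of the 13, against 3.45% over all. At 500 bp to the left and to the right of the summits, windows of 50 bp either side held TTCNNNGAA in 0 and 2 of 13. Over all optimal IDR peaks the shares there were 2.68% and 2.93%. With so few summits these counts are descriptions only.

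Across whole windows, Socs36E was dense in both words. Its window held 22 TTCNNNGAA words, 0.927 per kb, against a median of 0.293 per kb over the 1332 genes of like length, of which none was as dense. Its window also held 20 words of the variant, 0.842 per kb, and 0.225% of those genes were as dense. None of the 4 Socs36E summits had either word within 50 bp, and the printed sequence of peak 3 is bare. The whole interval of 1 Socs36E peak, peak 1, did hold TTCNNNGAA, 80 bp from its summit. With 4 summits and 50 bp either side, the absence cannot show that the words and the peaks of this target gene lay apart. At dome, the variant reached 0.916 per kb, a density found in 0.257% of like-length genes, and for TTCNNNGAA Stat92E, Ptp61F and the ligands ranged from 0.158 to 0.408 per kb, with 0.319 over the 6 arms.

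The E-box CANNTG lay within 50 bp of 6 of the 13 summits (46.2%), and of 38.0% of all optimal IDR summits. Within 25 bp the values were 1 of 13 (7.69%) and 20.1%, and within 100 bp they were 12 of 13 and 63.8%. The member share was thus the lower one within 25 bp and the higher one within 50 and 100 bp. At 500 bp to the left and to the right of the summits, windows of 50 bp either side held an E-box in 6 and 7 of 13. Over all optimal IDR peaks the shares there were 41.2% and 41.5%. Socs36E peak 4 held 3 E-boxes, all CATCTG and 2 of them in tandem, and 40 of the 3102 summits (1.29%) had at least 3 within 50 bp. Ptp61F peak 7 held the same word on the other strand, CAGATG, and 123 summits (3.97%) held CATCTG on either strand. The strongest Socs36E peak had no E-box nearer than 285 bp.

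TATCGATA, the word bound by the factor DREF, was within 50 bp of none of the 13 summits and of 2.64% over all. In the whole peaks it occurred in 1 of the 13 (7.69%), Ptp61F peak 2, 151 bp from the summit, and in 7.51% over all. GC content over the 101 bp at the member summits averaged 36.1%, from 25.7% at Ptp61F peak 9 to 52.5% at Socs36E peak 4, and the average over all optimal IDR summits was 36.2% with an SD of 8.71.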

How the data were processed

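Peak lists on dm6 were taken as the authors deposited them: the optimal IDR set, the pooled relaxed list and 1 relaxed list per replicate. Their signal column is the value the authors' peak caller gave each peak, on a scale that is not stated. Per the text deposited with the samples, each list derives from the alignments and 1 control alignment. Read depth is unknown, and neither an aligner nor a peak caller is given in the sources used here. The dm3 lists are not used here, and 1 summit sequence is not reported here.

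Summits were set against Ensembl release 115 genes (BDGP 6.54) with Python 3.11.15, pandas 2.3.3 and numpy 2.4.6. A replicate matched within 100 bp. Counting and word search were tested on simulated data. Windows, words and leaving out each replicate were varied. The members and all lists were chosen with earlier results of these data known. Genes named are the members, genes starting within 1000 bp of an optimal IDR summit in a member window, listed pathway genes with such a summit at a start, and the 5 profile neighbours of Ptp61F. Other names, such as ru, SA2, kel and the nearest genes of summits, were chosen after their values were seen. With 1 group and 2 replicates no test was made.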

Additional observations from a re-analysis of the deposited data

How the results depend on the processing

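Of 49 alternatives, 29 stayed within 1.5 times the reported count, and 4 were chosen after seeing the data. With 10 kb either side, 6 members had an optimal IDR summit in the window, not 2, and the share over all genes at that width is not given here. With the strongest 1551 of the optimal IDR peaks, the 13 member summits became 4, the 9 Ptp61F summits 2, and the 1 member with a summit at a start 0. With summits kept where the nearest protein-coding start is the member, the 13 became 3 and the 9 became 1; around the 2 short Ptp61F transcripts that share a start, 3 remained in the count. Within 2000 bp of a start, 2 members had a summit. Leaving out a replicate, and using the strongest 3102 peaks of the other, gave 2 to 3 members with a summit at a start, 3 in the window, 11 to 12 member summits and 7 Ptp61F summits. Shares over all genes for a summit at a start are not given here at these settings. The counts at a start therefore cannot be set against 18.9%.

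The 9 Ptp61F summits found in both replicates became 4 within 50 bp and 5 among the strongest peaks of each. Shares over the whole optimal IDR set at these settings are not given here. TTCNNNGAA at 2 summits became 1 within 25 bp, 4 within 100 bp and 4 in the whole peak. It became 0 at 500 bp to the left, 2 at 500 bp to the right and 0 with a spacer of 4 bases. Over all optimal IDR peaks, 1.61% held the word within 25 bp, 5.61% within 100 bp and 9.83% in the whole peak. CANNTG at 6 summits became 1 within 25 bp, 12 within 100 bp, 12 in the whole peak, 6 at 500 bp to the left and 7 to the right. Over all optimal IDR peaks, 20.1% held it within 25 bp, 63.8% within 100 bp and 81.9% in the whole peak. The cause of these moves was not tested beyond what each setting adds or removes. Read depth and control coverage were not examined here, so an absent peak is not an absence of binding.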
